A study of Rattus norvegicus with 68 samples.

Results

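The genes described here are the epidermal growth factor (EGF) receptor, 2 relatives of it and 6 of their ligands in the nasal epithelium of rats that inhaled formaldehyde. They were chosen by name, with earlier results of these data known. They are the ligands Areg, Ereg, Hbegf, Tgfa, Btc and Egf and the receptors Egfr, Erbb2 and Erbb3. Each was read from the probe set with the highest mean signal. All 9 had such a probe set, among 14217 genes tested. Expression was measured in 68 male F344/CrlBR rats with 1 single-colour Rat230_2 array per animal, in 17 groups of 4 animals. The rats were wild type as far as the labels say, and breathed 0, 0.7, 2, 6, 10 or 15 ppm formaldehyde in whole-body chambers, 6 h per day on 5 days per week. The labels give an age of 8 weeks for every group, which cannot be the age at sampling after 13 w of exposure. Between times, age and exposure time therefore cannot be told apart. The times were 5 d, 4 w and 13 w; the labels give 5 d for the time that the series' own text calls 1 week. At 4 w there were no 0 ppm arrays here, so the reference at that time was 0.7 ppm, animals that had been exposed themselves. For 19 of the 20 arrays of 4 w, a duration field reads 5 days, and the time in the title was followed. Titles of 0 ppm arrays carry other codes than those of exposed animals; their meaning is not given and cannot be told apart from dose.

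The sample of each animal was a protease digest of level II nasal tissue, without the maxilloturbinate and the olfactory lining according to the labels. Epithelial markers were high in every group, with group means on the log2 scale of 12.6 to 12.9 for Epcam and 12.2 to 12.7 for Cdh1. Omp, the olfactory marker protein, was nevertheless at 11.2 to 13.0, and the collagen gene Col1a1 at 11.4 to 13.2, so signal of olfactory neurons and matrix genes was present on these arrays. Array medians lay between 6.82 and 6.96, and arrays of a group correlated at 0.977 to 0.996 across all probe sets. Signals are log2 values, so that 1 unit is a doubling, and a group mean under 6 was treated as low signal. In bulk samples fewer cells of a type and less RNA per cell cannot be told apart.

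The receptor encoded by Egfr is a tyrosine kinase of the cell surface that pairs with itself or with the products of Erbb2 and Erbb3. The Erbb2 product binds no known ligand and acts as a partner, and that of Erbb3 binds neuregulins and has a weak kinase. The ligands are made as membrane proteins and are cut free by proteases such as the product of Adam17. A bound receptor signals through the ERK and PI3K cascades, and in airway epithelium this pathway is known for its part in repair, proliferation and mucous and squamous differentiation.

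Areg, Ereg and Btc lie side by side on rat chromosome 14. In the RefSeq annotation of GRCr8 the order of protein-coding genes there is Parm1, Btc, Areg, Ereg, Epgn and Mthfd2l. Epgn is not among the 9 genes and was placed on the list of other ErbB genes described below, where no value of Epgn itself is given. Areg and Ereg rose with dose and their neighbour Btc did not pass the test at any dose. RefSeq promoter windows, from 250 bases before to 50 after the annotated start, were at hand for 7 of the 9 genes. The 250 bases before the start are shown for Areg and Hbegf, which rose with dose and had a window at hand, and for Btc, the neighbour of Areg that was not called. Capitals mark matches to the motifs searched, on either strand, with the sequence written along the gene's strand. The windows are chr14:17265642-17265891 (minus strand), chr18:28390221-28390470 (minus strand) and chr14:16992418-16992667 (plus strand).
Areg: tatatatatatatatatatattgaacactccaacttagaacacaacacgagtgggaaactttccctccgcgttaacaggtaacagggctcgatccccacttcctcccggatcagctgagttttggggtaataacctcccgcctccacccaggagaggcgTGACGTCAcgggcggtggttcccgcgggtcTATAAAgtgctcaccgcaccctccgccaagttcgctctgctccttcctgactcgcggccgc
Hbegf: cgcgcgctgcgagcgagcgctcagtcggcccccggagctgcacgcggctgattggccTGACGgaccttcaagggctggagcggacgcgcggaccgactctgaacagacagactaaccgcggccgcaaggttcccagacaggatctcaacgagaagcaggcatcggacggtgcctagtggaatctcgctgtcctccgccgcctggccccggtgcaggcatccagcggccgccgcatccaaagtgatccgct
Btc: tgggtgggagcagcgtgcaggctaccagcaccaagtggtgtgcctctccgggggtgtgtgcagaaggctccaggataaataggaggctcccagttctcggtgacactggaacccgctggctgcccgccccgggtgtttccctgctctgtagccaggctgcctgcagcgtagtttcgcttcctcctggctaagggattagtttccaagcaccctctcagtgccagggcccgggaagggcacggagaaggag
The cAMP response element TGACGTCA stood 91 bases before the Areg start and in 1.83% of the 33469 promoter windows of the table. The TATA box TATAAA stood 61 bases before the Areg start and in 14.2% of windows. The shorter core TGACG, which overlaps the cAMP response element in Areg, also stood 193 bases before the Hbegf start and in 21.2% of windows. The AP-1 motif TGANTCA was in 7.33% of windows and in 0 of the 7 at hand, and the Btc window held none of these letters. A match describes the letters only.

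Areg, which encodes amphiregulin, had the widest range of the 9 genes. At 5 d its signal at 0 ppm was 5.08, 5.18, 5.93 and 6.28 in the 4 animals. It was 7.31, 8.20, 9.09 and 9.43 at 6 ppm, and 8.77, 9.42, 9.50 and 9.60 at 10 ppm. At 15 ppm it was 9.95, 10.53, 10.59 and 10.85. Every animal at 6 ppm or more was above every 0 ppm animal, and the 6 and 10 ppm animals overlapped. The log2 change against 0 ppm was 2.89 at 6 ppm, 3.70 at 10 ppm and 4.86 at 15 ppm, each with a standard error (SE) of 0.32 from limma's fit with 4 animals per group, and with adjusted p of 1.16e-08, 2.31e-12 and 2.55e-18. Adjusted p-values here are limma's with Benjamini-Hochberg adjustment over all 14217 genes, and a gene is said to have risen or fallen where this is under 0.05.

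At 4 w Areg was 4.93, 4.94, 5.23 and 5.70 in the 0.7 ppm animals. It was 7.60, 8.24, 8.40 and 8.83 at 6 ppm, and 9.26, 9.73, 9.82 and 9.90 at 10 ppm. The 15 ppm animals were at 10.03, 10.48, 10.59 and 10.63. These 4 doses occupied separate ranges at this time. The log2 changes against 0.7 ppm were 3.07, 4.48 and 5.23 at 6, 10 and 15 ppm (SE 0.32).

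At 13 w Areg was 4.62, 5.06, 5.31 and 5.87 at 0 ppm. It was 8.13, 8.28, 9.07 and 9.30 at 6 ppm, and 9.38, 10.07, 10.33 and 10.64 at 10 ppm. At 15 ppm it was 10.16, 10.77, 10.80 and 10.86, the highest group mean of the gene at 10.65 ± 0.33 (SD, n = 4). The 10 and 15 ppm animals overlapped and the other ranges did not. The log2 changes against 0 ppm were 3.48, 4.89 and 5.43 (SE 0.32), with adjusted p of 2.49e-11, 1.57e-17 and 8.5e-20. Because the reference means of Areg, 5.20 to 5.62, were low signal, the true size of these changes is less certain than their direction.

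**Figure D1:**
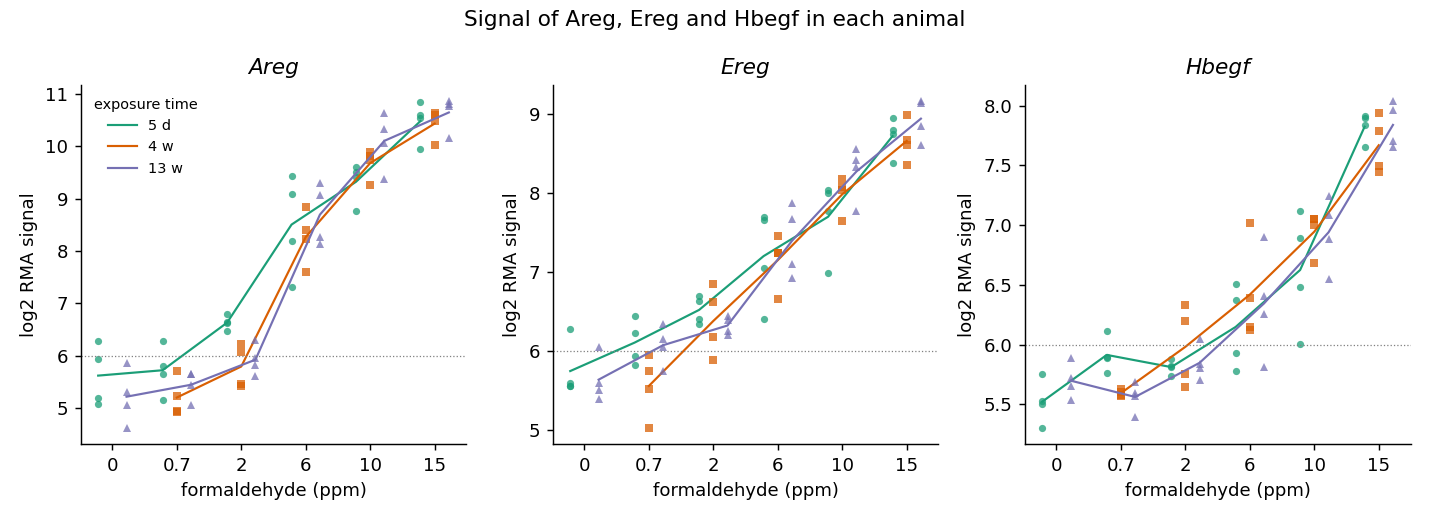
log2 RMA signal of Areg, Ereg and Hbegf (y axes, not starting at 0) in each animal against formaldehyde concentration (x axes, doses evenly spaced), with circles and green for 5 d, squares and orange for 4 w, triangles and purple for 13 w, lines through the group means of 4 animals, and a dotted line at the low-signal limit of 6. In all 3 genes the 15 ppm animals lie above the reference animals of their time, from 9.95 to 10.86 in Areg against at most 6.28 at 0 ppm.

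Ereg encodes epiregulin, which binds the EGF receptor and ErbB4. At 5 d it was 5.55, 5.56, 5.60 and 6.28 at 0 ppm, and 6.41, 7.05, 7.65 and 7.69 at 6 ppm. At 10 ppm it was 6.98, 7.77, 8.00 and 8.04, and at 15 ppm 8.38, 8.75, 8.79 and 8.95. The 0 ppm animals were below all others of these doses, 6 and 10 ppm overlapped, and 15 ppm stood above both. The log2 changes were 1.45, 1.95 and 2.97 (SE 0.24), with adjusted p of 5.57e-05, 1.74e-08 and 3.7e-15.

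At 4 w Ereg was 5.03, 5.52, 5.75 and 5.95 in the 0.7 ppm animals, and 8.36, 8.60, 8.67 and 8.99 at 15 ppm. At 13 w it was 5.39, 5.51, 5.60 and 6.06 at 0 ppm, and 8.61, 8.85, 9.14 and 9.16 at 15 ppm. Neither pair of groups overlapped. The changes at 6, 10 and 15 ppm were 1.59, 2.42 and 3.10 at 4 w and 1.75, 2.63 and 3.30 at 13 w (SE 0.24 each). Ereg thus rose in 9 of 14 comparisons with a reference, as did Areg, and both did so at 6, 10 and 15 ppm at each time. Each of these calls of Areg and Ereg held under every alternative run, including each animal left out in turn and a minimum change of 1.5-fold.

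Hbegf encodes the heparin-binding EGF-like growth factor, which is also known as the diphtheria toxin receptor. At 5 d it was 5.30, 5.50, 5.53 and 5.76 at 0 ppm, and 5.78, 5.93, 6.38 and 6.51 at 6 ppm. It was 6.00, 6.49, 6.89 and 7.12 at 10 ppm, and 7.65, 7.84, 7.90 and 7.91 at 15 ppm. The 6 ppm animals lay just above the 0 ppm animals, and the 15 ppm animals stood clear of all other groups of that time. The log2 change was 0.62 at 6 ppm, 1.10 at 10 ppm and 2.30 at 15 ppm (SE 0.18), with adjusted p of 0.0228, 1.24e-05 and 2.84e-15.

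At 4 w Hbegf was 5.57, 5.58, 5.60 and 5.63 in the 0.7 ppm animals and 7.45, 7.50, 7.79 and 7.94 at 15 ppm. At 13 w it was 5.53, 5.66, 5.72 and 5.89 at 0 ppm and 7.66, 7.70, 7.96 and 8.04 at 15 ppm. At both times the 15 ppm animals were above every reference animal. The changes at 6, 10 and 15 ppm were 0.82, 1.35 and 2.07 at 4 w and 0.65, 1.24 and 2.14 at 13 w. The call at 6 ppm was less firm than at higher doses. At 5 d its adjusted p was 0.493, with a change of 0.23, when 0.7 ppm was the reference, and it also passed 0.05 without 0 ppm animal 204 or 210 or 6 ppm animal 298 or 300. At 4 w it was 0.0883 without 6 ppm animal 310, and at 13 w 0.113 without 6 ppm animal 316 and 0.0584 with the RNA integrity number as a covariate.

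Tgfa, the gene of transforming growth factor alpha, was well above low signal everywhere and rose at 15 ppm at 4 w and 13 w. At 4 w it was 9.01, 9.02, 9.12 and 9.17 in the 0.7 ppm animals and 9.45, 9.47, 9.48 and 9.52 at 15 ppm. At 13 w it was 9.03, 9.10, 9.12 and 9.35 at 0 ppm and 9.50, 9.57, 9.66 and 9.70 at 15 ppm. The groups did not overlap at either time. The log2 change was 0.40 at 4 w (adjusted p = 0.000248) and 0.46 at 13 w (adjusted p = 1.96e-05), with an SE of 0.089. At 5 d it was 0.14, with a 95% interval of -0.04 to 0.32 and adjusted p = 0.238; that call was made under cyclic loess (0.22, adjusted p = 0.0223) and against 0.7 ppm (0.29, adjusted p = 0.00672). The second probe set of Tgfa changed by 0.13, 0.49 and 0.51 at 15 ppm at 5 d, 4 w and 13 w. Neither later call passed a test for a change of at least 1.5-fold.

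Egf, the founding ligand, moved the other way. At 13 w its signal was 7.88, 8.14, 8.36 and 8.45 at 0 ppm, 6.88, 7.41, 8.00 and 8.05 at 10 ppm, and 6.56, 7.34, 7.46 and 8.01 at 15 ppm. Both exposed groups overlapped the 0 ppm animals and spread more widely than they did. The log2 change was -0.62 at 10 ppm (adjusted p = 0.0477) and -0.86 at 15 ppm (adjusted p = 0.00237), with an SE of 0.24. The 10 ppm call was lost without any 1 of the 0 ppm animals 225, 226 and 229 or the 10 ppm animals 341 and 349, with a change of -0.39 and adjusted p = 0.307 without animal 349, and under several other settings. At 15 ppm after 4 w the change was -0.46 with adjusted p = 0.132, though the groups did not overlap, and after 5 d it was -0.11.

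Btc encodes betacellulin, which binds the EGF receptor and ErbB4. It lay near the low-signal limit, with group means of 5.60 to 6.39, and was called in 0 of 14 comparisons by limma; 2 had an unadjusted p under 0.05. Its largest change was 0.38 at 10 ppm after 13 w, with a 95% interval of 0.03 to 0.72 and adjusted p = 0.108. That value passed the threshold under 3 alternatives: array weights, a fit on the times compared only, and without 10 ppm animal 348.

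Egfr, the receptor gene itself, showed no dose-ordered change in the probe set used. It was above 9 on every array, with group means of 9.27 to 9.99. At 5 d it was 9.14, 9.30, 9.37 and 9.69 at 0 ppm and 9.46, 9.88, 9.88 and 9.90 at 6 ppm, and these groups overlapped. The change of 0.41 (SE 0.13) had adjusted p = 0.0405, the only call of the gene. It did not hold in 14 of 21 alternatives, among them those without 0 ppm animal 207, 208 or 210 or 6 ppm animal 295, 299 or 300, and was 0.20 with adjusted p = 0.524 with the beta-actin 3' minus 5' signal as a covariate. That covariate was 1.71 at 0 ppm and 2.61 at 6 ppm.

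At 15 ppm the Egfr change was -0.10 at 5 d (95% interval -0.36 to 0.17), -0.10 at 4 w (-0.36 to 0.17) and 0.26 at 13 w (-0.01 to 0.52). The last of these was -0.23 against 0.7 ppm, and 0.34 with adjusted p = 0.0448 without 0 ppm animal 229. At 13 w the 0.7 ppm animals, at 9.85, 9.94, 10.07 and 10.11, were all above the 0 ppm animals, at 9.29, 9.30, 9.69 and 9.76. The difference of 0.48 had an unadjusted p of 0.000596 in limma but did not pass after adjustment over all genes. Against this 0.7 ppm group, Egfr at 10 ppm after 13 w was lower, at -0.52 on the log2 scale (adjusted p = 0.00184), where the change against 0 ppm was -0.04. At 15 ppm after 5 d the value against 0.7 ppm was -0.35 (adjusted p = 0.029). The 3 Egfr probe sets did not agree. At 4 w a second one, at a mean of 7.46, changed by 0.04, -0.22, -0.51 and -0.46 at 2, 6, 10 and 15 ppm. Its limma adjusted p, here over all probe sets, was 0.066 at 10 ppm and 0.0469 at 15 ppm. At 15 ppm after 13 w this probe set changed by 0.245. The third, at a mean of 4.88, changed by 0.10 at 15 ppm after 4 w.

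Erbb2, the gene of the ligandless partner, fell in 6 of 14 comparisons, and most at the first time. At 5 d it was 9.22, 9.32, 9.34 and 9.45 at 0 ppm, and 8.97, 9.06, 9.31 and 9.39 at 10 ppm. It was 8.41, 8.51, 8.54 and 8.79 at 15 ppm, the lowest group of the gene. The 10 ppm animals overlapped the 0 ppm animals, and the 15 ppm animals did not. The log2 change at 15 ppm was -0.77 (SE 0.12, adjusted p = 7.9e-07), and held under every alternative.

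At 13 w Erbb2 was 9.25, 9.47, 9.54 and 9.63 at 0 ppm, 8.91 to 9.14 in the 4 animals at 10 ppm, and 8.97, 9.10, 9.22 and 9.33 at 15 ppm. The 10 ppm animals lay below all 0 ppm animals, and the 15 ppm animals overlapped them. The changes were -0.41, -0.44 and -0.32 at 6, 10 and 15 ppm, and at 4 w they were -0.35 at 10 ppm and -0.31 at 15 ppm. Of these 5 calls, that of 10 ppm after 13 w held without each animal in turn. The 6 ppm call at 13 w was lost without 0 ppm animal 225 or 230 or 6 ppm animal 319 or 320, and the 15 ppm call without 225, 230, 375 or 379. At 4 w the 10 ppm call was lost without 0.7 ppm animal 242, 243 or 250 or 10 ppm animal 331 or 336, and the 15 ppm call without 242, 243, 250, 362, 365 or 368. None of these 5 passed a test for a change of at least 1.5-fold. With each array centred on its median, limma's adjusted p at 15 ppm was 0.0569 at 4 w and 0.0506 at 13 w. With 0.7 ppm as reference the latter was 0.054. In a fit on arrays of 4 w only, it was 0.122 at 10 ppm and 0.094 at 15 ppm. The 6 ppm call at 13 w was lost with the beta-actin 3' minus 5' signal as a covariate (adjusted p = 0.054).

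Erbb3, the gene of the neuregulin receptor, was at low signal in 15 of 17 groups, with group means of 5.82 to 6.14. It was called in 0 of 14 comparisons, and 0 had an unadjusted p under 0.05 in limma. Its largest change was 0.24, at 15 ppm after 4 w, which was 0.36 with adjusted p = 0.04 without 15 ppm animal 368.

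**Figure D2:**
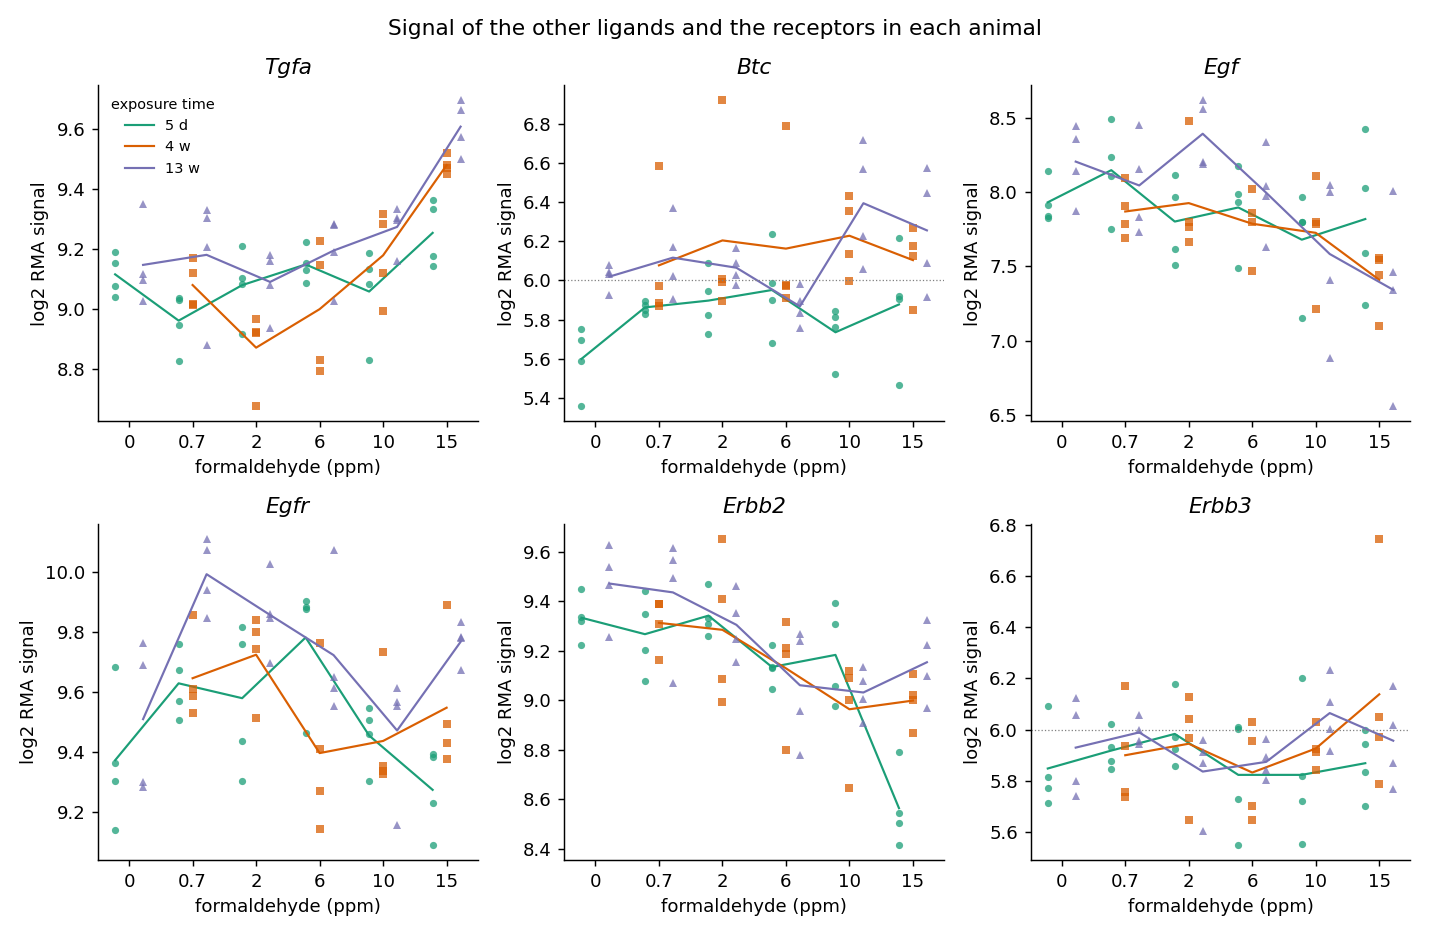
log2 RMA signal of Tgfa, Btc, Egf, Egfr, Erbb2 and Erbb3 (y axes, not starting at 0) in each animal against formaldehyde concentration (x axes, doses evenly spaced), with circles and green for 5 d, squares and orange for 4 w, triangles and purple for 13 w, and lines through the group means of 4 animals. Erbb2 at 15 ppm after 5 d lies between 8.41 and 8.79, and Tgfa at 15 ppm after 13 w between 9.50 and 9.70; a dotted line marks 6 where the axis reaches it.

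The counts of genes that rose or fell are to be read against the share of all tested genes called, which is given for each comparison. Because the 9 genes were chosen with earlier results of these data known, this describes them and is no test. Comparisons of a time share their reference animals, and so are not independent of each other. At 0.7 ppm 0 of the 9 genes were called at 5 d and at 13 w, where 0% of all genes were, and 1 gene at each time had an unadjusted p under 0.05 in limma, Hbegf at 5 d (0.39) and Egfr at 13 w (0.48). At 2 ppm 0 of 9 were called at 5 d (0.0281% of all genes), at 4 w (0.0211%) and at 13 w (0.00703%). At this dose 2, 3 and 3 of the 9 had an unadjusted p under 0.05 in limma, Ereg at each time, with changes of 0.77, 0.82 and 0.68. The shares of all genes given here are for adjusted p. No share at an unadjusted p under 0.05 was at hand, so nothing is concluded from the unadjusted counts.

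At 6 ppm 4 of 9 rose and 0 fell at 5 d, against 3.54% and 5.30% of all genes. At 4 w 3 rose and 0 fell (2.05% and 1.24%), and at 13 w 3 rose and 1 fell (7.54% and 4.68%). Areg, Ereg and Hbegf were the 3 that rose at each time. The count of 4 at 5 d became 2 against 0.7 ppm, and also without 0 ppm animal 210 or 6 ppm animal 300. At 10 ppm 3 rose and 0 fell at 5 d (9.75% and 5.79%), 3 rose and 1 fell at 4 w (9.03% and 5.75%), and 3 rose and 2 fell at 13 w (13.8% and 12.5%).

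At 15 ppm a large part of all genes was called, so the counts say less about these 9. At 5 d 3 rose and 1 fell (18.3% and 19.5%), at 4 w 4 rose and 1 fell (21.3% and 16.1%), and at 13 w 4 rose and 2 fell (23.5% and 20.6%). The median change of the 9 genes at 15 ppm was 0.14, 0.24 and 0.26 at the 3 times, beside -0.01, 0.01 and -0.02 over all genes. These medians are over genes that moved both ways; Areg, Ereg and Hbegf changed by 2.07 to 5.43, and no other of the 9 by more than 0.86 in either direction.

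**Figure D3:**
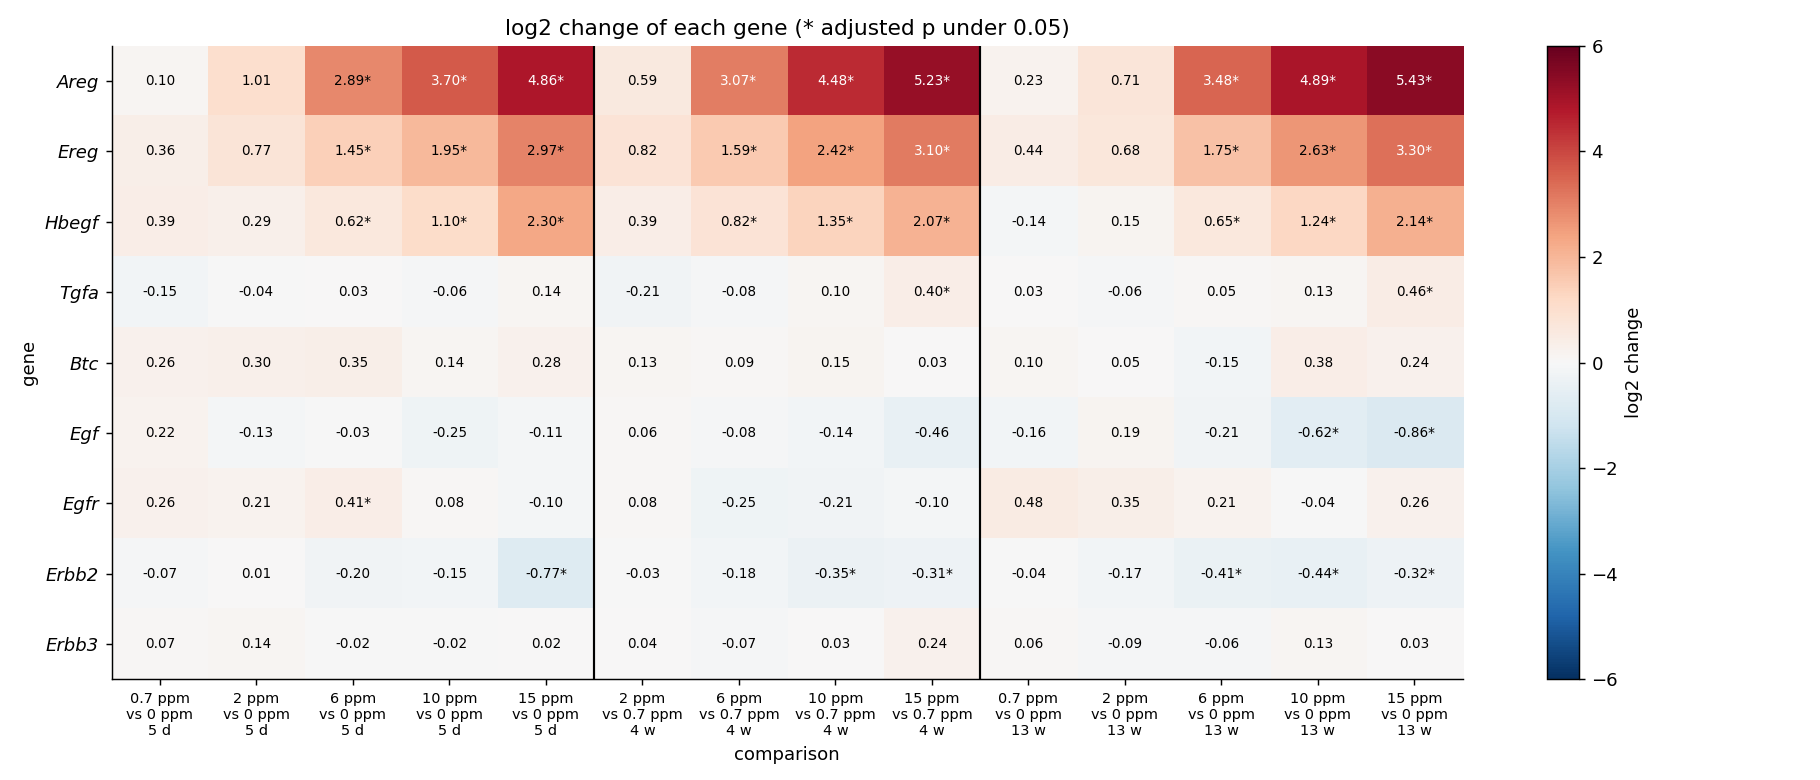
log2 change of each of the 9 genes (rows) in 14 comparisons of a dose with the reference of its time (columns, vs meaning against; 4 w columns have 0.7 ppm as reference), as colour from blue (lower) to red (higher) and as a number, with a star where limma's adjusted p is under 0.05. Areg rises from 0.10 at 0.7 ppm after 5 d to 5.43 at 15 ppm after 13 w. The lowest value is -0.86, of Egf at 15 ppm after 13 w, and Erbb2 reaches -0.77 at 15 ppm after 5 d.

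Neighbouring high doses were also compared directly. From 6 to 10 ppm at 5 d 0 of 9 genes were called (1.02% of all genes). An unadjusted p under 0.05 in limma was seen in 4, a count with no share of all genes to set it against. At 4 w Areg rose by 1.41 between these doses, the 1 gene called (0.577%). At 13 w Areg rose by 1.41 and Ereg by 0.88 (2 of 9, 3.98%). These counts were unsteady. At 5 d 1 was called without 10 ppm animal 324 or 6 ppm animal 298. At 4 w 0 were called without 10 ppm animal 333 or 336 or 6 ppm animal 303 or 309. At 13 w 0 were called without 10 ppm animal 346 or 349 or 6 ppm animal 320, 1 without animal 341 or 319, and 4 without 10 ppm animal 348.

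From 10 to 15 ppm at 5 d Areg rose by 1.16, Ereg by 1.02 and Hbegf by 1.20, and Erbb2 fell by 0.62 (4 of 9, 15.2%). At 4 w Hbegf rose by 0.72 and Tgfa by 0.30 (2 of 9, 6.29%), and at 13 w by 0.90 and 0.33 (2 of 9, 12.6%). Areg was 0.76 and 0.54 higher at 4 w and 13 w, with adjusted p of 0.149 and 0.289. The count at 4 w was 0 without 10 ppm animal 331 or 15 ppm animal 368, and 1 without 336 or 369. Hbegf was thus called in this last step at each of the 3 times, and Areg at 5 d. In the step before it, Areg was called at 4 w and 13 w. There Hbegf was 0.48, 0.53 and 0.59 higher at 5 d, 4 w and 13 w, with limma's adjusted p of 0.194, 0.272 and 0.0505. These calls say which side of the threshold a gene fell on, and not that the 2 genes moved at different doses.

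Whether a response differed between times was tested as an interaction in the same fit. The percentages are of all genes called at adjusted p under 0.05, and the unadjusted counts beside them have no such share. For the response to 6 ppm, 13 w minus 5 d, 0 of 9 genes were called (0% of all genes; 1 gene at an unadjusted p under 0.05 in limma). For 10 ppm 0 of 9 were called (0.00703%; 2 unadjusted), with Areg at 1.19 (95% interval 0.28 to 2.09, adjusted p = 0.671). For 15 ppm 0 of 9 were called (15.3%; 3 unadjusted). The nearest were Erbb2, whose fall was smaller at 13 w by 0.45 (interval 0.10 to 0.80, adjusted p = 0.0679), and Tgfa, whose rise was larger by 0.32 (0.07 to 0.57, adjusted p = 0.0743). For Egf the difference was -0.75 (-1.43 to -0.07, adjusted p = 0.137), so a fall of Egf at 13 w alone was not shown. The count was 1 without 0 ppm animal 225, 15 ppm animal 375 or 379 of 13 w, or 15 ppm animal 356 of 5 d.

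The 15 ppm response over 0.7 ppm called 0 of 9 between 4 w and 5 d (3.45%; 1 unadjusted) and 0 of 9 between 13 w and 4 w (0.0633%; 0 unadjusted). For Areg the latter difference was -0.03, with a 95% interval of -0.94 to 0.88, which leaves room for sizeable differences either way. In unexposed animals 0 of 9 genes were called between 13 w and 5 d (2.24%, and 1 unadjusted), a comparison that includes age. The largest difference was 0.42 in Btc (limma's adjusted p = 0.183).

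Ordered by group mean, Areg stood highest in the 3 groups of 15 ppm, then those of 10 ppm, then those of 6 ppm, at 10.65 down to 8.27. The animals of neighbouring groups in that order overlapped, and the first gap lay between 6 ppm after 4 w at 8.27 and 2 ppm after 5 d at 6.63. Ereg had the same order of these 9 groups, and 6 ppm after 4 w at 7.15 and 2 ppm after 5 d at 6.52 overlapped, with a lowest animal of 6.66 in the former and a highest of 6.70 in the latter. In Hbegf a gap lay between 15 ppm after 4 w at 7.67 and 10 ppm after 4 w at 6.95. In Erbb2 the lowest group, 15 ppm after 5 d at 8.56, overlapped the next, 10 ppm after 4 w at 8.96, by 1 animal of the latter at 8.64.

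Animals of the same group that had more Areg also had more Ereg and Hbegf. With each group's mean removed, Pearson's r over 68 animals was 0.755 for Ereg and 0.635 for Hbegf, and Spearman's rho 0.711 and 0.675. The permutation p was 1e-05 for each, the smallest that 100000 shuffles within groups can give, and 4e-05 after Benjamini-Hochberg adjustment over 8 relations. Without the 2 animals farthest from the median of Areg, r was 0.711 and 0.622. Within 5 d, 4 w and 13 w it was 0.767, 0.882 and 0.648 for Ereg and 0.605, 0.779 and 0.583 for Hbegf. For the other 6 genes r lay between -0.219 and 0.255, with adjusted permutation p of 0.18 or more. The points share each array's scaling and its RNA; centring the arrays gave 0.758 and 0.639.

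**Figure D4:**
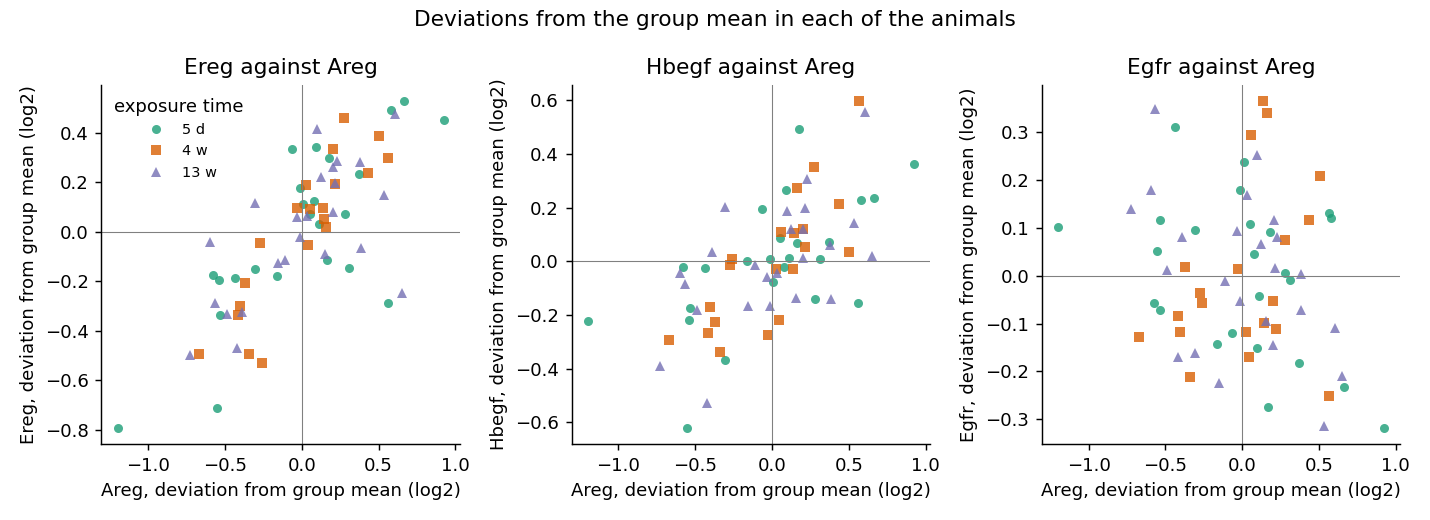
Deviation of each of 68 animals from its group mean in Areg (x axes, log2) against that in Ereg, Hbegf and Egfr (y axes, log2), with circles and green for 5 d, squares and orange for 4 w and triangles and purple for 13 w. The points run along a rising diagonal for Ereg (r = 0.755) and Hbegf (r = 0.635) and show no such line for Egfr (r = -0.219).

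The genes whose 17 group means were most like those of Areg were Fosl1 (r = 0.995), a subunit of the AP-1 transcription factor, Gnl3 (0.989) and Myl12a (0.988). For Ereg they were Fosl1 (0.988), Areg (0.984) and C9h6orf141 (0.982). Hbegf was most like Plk2 (0.984), Nabp1 (0.977) and Txndc17 (0.976), and Tgfa most like Tgm5 (0.911), Mgst2 (0.907) and Polg2 (0.906). Erbb2 was most like Fgfr3 (0.960), Atp11a (0.953) and Scnn1a (0.948), Egf most like Kcnma1 (0.918), Pde4d (0.911) and C18h18orf32 (0.900), and Egfr most like Chd9 (0.866), Zfp654 (0.865) and Tmem245 (0.859). These values describe a shared course over dose and time, and the group means share arrays. Among the 9 genes, Areg correlated over groups at 0.984 with Ereg and 0.929 with Hbegf, and at -0.812 with Erbb2.

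Markers of other cells moved at 10 and 15 ppm, and their counts are to be read against the share of all genes. At 15 ppm 18.3%, 21.3% and 23.5% of all genes rose at 5 d, 4 w and 13 w. At these times 19.5%, 16.1% and 20.6% fell. At 10 ppm 9.75%, 9.03% and 13.8% rose, and 5.79%, 5.75% and 12.5% fell. At 15 ppm after 5 d, 4 of 4 neutrophil markers, 5 of 6 of macrophages and dendritic cells, 5 of 5 of T and cytotoxic cells and 2 of 3 of all leukocytes rose. The mean signal of the neutrophil list was 6.98 to 8.36 in the 0 ppm animals and 10.15 to 10.91 at 15 ppm. At 4 w 4 of 4 neutrophil markers rose at 15 ppm, with a list mean of 6.46 to 7.37 at 0.7 ppm and 8.56 to 9.57 at 15 ppm. At 10 ppm after 4 w 3 of 4 rose, with 8.16 to 9.29, as did 3 of 6 macrophage and dendritic cell markers, with 8.78 to 9.15 against 8.43 to 8.75. At 10 ppm after 5 d 1 of 5 T and cytotoxic cell markers rose, and after 13 w 0 leukocyte markers rose, 1 of 6 macrophage and dendritic cell markers fell and 3 of 5 fibroblast and matrix markers fell. At 15 ppm after 13 w 1 of 4 neutrophil markers rose and 2 of 6 macrophage and dendritic cell markers and 1 of 5 T cell markers fell. For lists this short, these last counts are not far from the shares of all genes.

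At 6 ppm 0 markers of these 4 leukocyte lists rose at 5 d, 4 w or 13 w. Of all genes 3.54%, 2.05% and 7.54% rose at these times, so a count of 0 in such short lists says little. At 5 d 2 of 6 macrophage and dendritic cell markers fell, where 5.30% of all genes did. The neutrophil list was at 7.10 to 7.90 in the 6 ppm animals of 5 d, within the range at 0 ppm, and at 6.93 to 7.62 in those of 13 w. Fibroblast and matrix markers were at 10.72 to 11.86 at 6 ppm after 5 d and 11.74 to 12.76 at 0 ppm, with 0 of 5 called. Basal and squamous markers rose in 3, 4 and 4 of 4 at 15 ppm at 5 d, 4 w and 13 w, and in 1 of 4 at 6 ppm at each time. Ciliated markers fell in 2, 2 and 3 of 3 at 15 ppm. These counts too are to be read against the shares of all genes given above. The part of these cell types in the results was not tested.

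Measures of RNA quality also differed between doses. The mean RNA integrity number, given for all but 5 arrays, was 7.68 at 0 ppm and 8.47, 8.50 and 8.32 at 6, 10 and 15 ppm after 5 d, and 7.57 and 8.90 at 0 and 15 ppm after 13 w. At 4 w it was 8.20 at 0.7 ppm and 8.15, 8.10 and 8.72 at 6, 10 and 15 ppm. The beta-actin 3' minus 5' signal, which grows with RNA breakdown, was 1.71 at 0 ppm and 2.61, 2.05 and 2.47 at 6, 10 and 15 ppm after 5 d. A higher integrity number stands for more intact RNA, so the measures pointed opposite ways at 5 d. After 4 w the actin difference was 1.84 at 0.7 ppm and 1.79, 1.75 and 1.79 at 6, 10 and 15 ppm. After 13 w it was 1.58 at 0 ppm and 1.89, 1.74 and 1.71 at those doses. With the integrity number as a covariate, or the actin difference, every call of Areg and Ereg against a reference held, as did those of Hbegf at 10 and 15 ppm.

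The rest of the pathway was described from lists of genes, also chosen with earlier results of these data known. Their counts at 15 ppm describe the lists and are to be read against all genes tested. Of these 18.3% rose and 19.5% fell at 5 d (37.7% in all), and 23.5% rose and 20.6% fell at 13 w (44.2% in all). Of the other ErbB genes, 4 of 6 were measured. Nrg1, which encodes neuregulin 1, rose by 1.49 at 15 ppm after 13 w (SE 0.16, adjusted p = 2.39e-11) and by 1.17 after 5 d. Nrg2 fell by 0.52 and Nrg4 by 0.82 after 5 d. In all 1 rose and 2 fell at 5 d, and 1 rose and 1 fell at 13 w, with list medians of -0.33 and -0.14.

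Of 10 genes that release and traffic ligands, 8 were measured, of which 2 rose and 1 fell at 15 ppm after 5 d and 4 rose and 1 fell after 13 w. Adam17, the main sheddase of several of these ligands, rose by 0.39 at 5 d and 0.99 at 13 w (SE 0.15). Rhbdf2, which brings Adam17 to the cell surface, rose by 0.60 and 0.68. Adam10, the main sheddase of Egf and Btc, fell by 0.76 at 5 d. Timp3, an inhibitor of Adam17, fell by 1.10 at 13 w, where 3 of 5 fibroblast and matrix markers also fell and their mean signal was 10.24 to 11.42 against 12.14 to 12.55 at 0 ppm; the part of those cells was not tested. The list medians were 0.00 and 0.23.

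Of 16 genes that restrain or turn over the receptor, 14 were measured, and 4 rose and 2 fell at 5 d and 3 rose and 3 fell at 13 w, shares near those of all genes. Lrig1, which targets the receptors for breakdown, fell by 1.01 at 5 d and 0.99 at 13 w (SE 0.10). Sh3kbp1, an adaptor of receptor uptake, fell by 0.88 at 13 w. Socs5 rose by 0.54 and Cblc, a ubiquitin ligase of the receptor, by 0.73 at 13 w. With a 1.5-fold minimum 1 of the 6 calls at 5 d was left. The list medians were 0.04 and -0.09.

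Of 27 adaptors and kinases of the ERK and PI3K arms, 20 were measured, and 3 rose and 5 fell at 5 d and 4 rose and 7 fell at 13 w, in all a share near that of all genes at 5 d (37.7%) and somewhat above it at 13 w (44.2%). Nras rose by 0.83 at 13 w, and Src by 0.49. Map2k1, the gene of an ERK kinase, rose by 0.47 at 5 d, and the adaptor gene Grb2 fell by 0.27. These changes were small, and with a 1.5-fold minimum the counts of 8 and 11 became 1 and 2. The list medians were -0.05 and -0.07.

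Of 24 genes known as targets or feedback regulators of ERK, 22 were measured, and 11 rose and 3 fell at 5 d and 12 rose and 3 fell at 13 w. The list medians were 0.41 and 0.45, beside -0.01 and -0.02 over all genes. Fosl1 rose by 3.32 at 5 d (SE 0.21) and 3.25 at 13 w, and Plaur, the gene of the urokinase receptor, by 4.17 and 3.04. Etv4, an ETS transcription factor, rose by 1.05 and 1.73. The feedback inhibitor gene Spry1 went down, by 1.01 and 1.08 (SE 0.11). At 6 ppm 3 rose and 1 fell after 5 d, where 3.54% and 5.30% of all genes did. After 13 w 6 rose and 1 fell at this dose, where 7.54% and 4.68% of all genes did. At 15 ppm after 5 d this list moved together with the leukocyte markers given above, and Plaur is known to be expressed in leukocytes; their part was not tested.

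**Figure D5:**
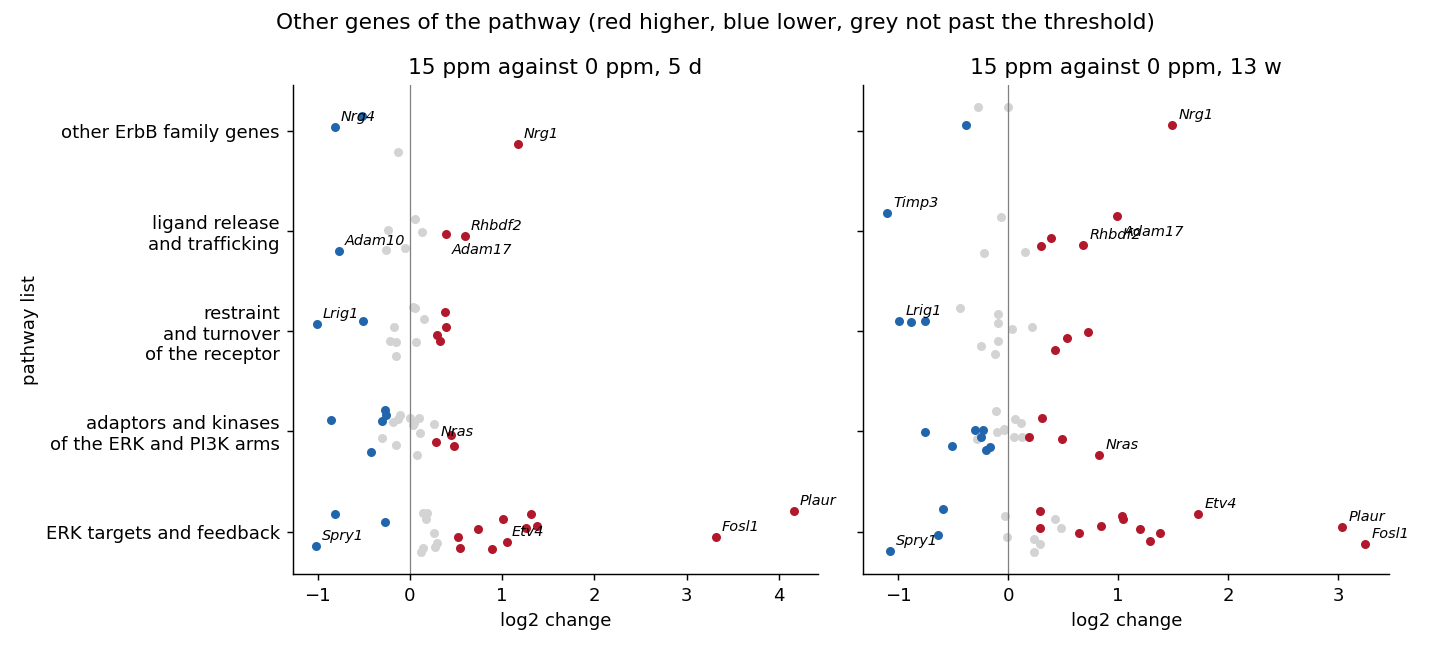
log2 change at 15 ppm against 0 ppm after 5 d and after 13 w (x axes) of each measured gene of 5 pathway lists (y axis; height within a list is arbitrary), in red where it rose, blue where it fell and grey where limma's adjusted p was 0.05 or more. Fosl1 and Plaur lie farthest right, at 3.32 and 4.17 after 5 d, and Lrig1, Spry1 and Timp3 are among the lowest.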

How the data were processed

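Signals are log2 values that the authors deposited, made from the array scans with GCOS 1.0 and RMA per the submitters' processing notes; RMA subtracts background, quantile-normalises all arrays together and summarises probes, which can compress low signals and large changes. Normalisation settings and detection calls are not given in the sources used here. Of 31099 probe sets (57 control probe sets left out), 20826 were named by 1 gene and used, and 436 with several genes and 9780 with none were not. A gene was read from its probe set with the highest mean. The 9 genes, the pathway lists and the marker lists were chosen with earlier results of these data known. Groups follow the titles, and replicates are separate animals whose numbers pair no groups. A single limma 3.58.1 fit (R 4.3.3) with 1 mean per group over all 68 arrays and eBayes, with 51 residual and 2.85 prior degrees of freedom, gave each contrast, with Benjamini-Hochberg adjustment over 14217 genes; the median SE of a dose comparison was 0.104. Named were all 9 genes, up to 3 genes most like each called one, and up to 4 called genes per list. The deposited log2 values carry no counts. Each SE combines the 4 animals per group with 1 spread per gene that all 17 groups share. It therefore does not measure the spread of the groups named. Group SDs differed, for Areg from 0.134 at 2 ppm to 0.953 at 6 ppm, both after 5 d. Simulated arrays with known changes were used to test the fit. Alternatives were other scaling, probe set, filter, weight, covariate and reference choices and each animal left out in turn.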

Additional observations from a re-analysis of the deposited data

Results flagged for a closer look

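In 11 of the 153 gene and group combinations tested, 1 animal stood apart from the other 3 of its group by Dixon's criterion for 4 samples; chance alone gives about 1 in 20. Areg was 10.16 in animal 375 (15 ppm, 13 w) against 10.77 to 10.86 in the others. Ereg was 6.28 in animal 207 (0 ppm, 5 d) against 5.55 to 5.60. Hbegf was 6.68 in animal 331 (10 ppm, 4 w), below the others, which reached 7.06. Tgfa was 8.68 in animal 276 (2 ppm, 4 w) against 8.92 to 8.97.

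Btc was so marked in 3 of the 5 groups of 4 w, each time with 1 animal higher than the rest. It was 6.58 in animal 243 (0.7 ppm) against 5.87 to 5.97, 6.92 in animal 276 (2 ppm) against 5.90 to 6.01, and 6.79 in animal 310 (6 ppm) against 5.91 to 5.98. Animal 310 is also the animal without which the Hbegf call at 6 ppm after 4 w is lost. Egf was 8.48 in animal 273 (2 ppm, 4 w) against 7.66 to 7.80. Egfr was 9.16 in animal 346 (10 ppm, 13 w) against 9.55 to 9.61, 9.73 in animal 338 (10 ppm, 4 w) against 9.33 to 9.35, and 9.46 in animal 298 (6 ppm, 5 d) against 9.88 to 9.90.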

How the results depend on the processing

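No called result reversed its direction under any alternative run, while values that passed no test could change sign, such as Egfr at 15 ppm after 13 w, at 0.26 against 0 ppm and -0.23 against 0.7 ppm. Of the single-gene results, 2714 kept their side of the threshold, 89 fell below it and 9 passed it. The counts of called genes moved by over 1.5 times as follows. At 6 ppm after 5 d 4 became 2 against 0.7 ppm, and 2 to 3 with 1 animal left out. At 15 ppm after 4 w 5 became 3 with a 1.5-fold minimum. From 6 to 10 ppm array weights gave 2 at 5 d (from 0), 3 at 4 w (from 1) and 4 at 13 w (from 2), and leaving out 1 animal 0 to 1, 0 to 1 and 0 to 4. From 10 to 15 ppm at 4 w 2 became 1 with the mean of all probe sets, a 1.5-fold minimum, a fit on that time only and the RNA integrity number as covariate, and 0 to 2 with 1 animal left out; at 13 w it was 1 with a 1.5-fold minimum. For the 15 ppm response, 13 w minus 5 d, 0 became 1 with the mean of probe sets, 2 with array weights, 1 with a fit on the times compared, and 0 to 1 with 1 animal left out. In the lists, a 1.5-fold minimum left 1 of 6 restraint genes and 1 of 8 adaptors and kinases at 5 d, and 1 of 2 other ErbB genes, 3 of 5 ligand release genes and 2 of 11 adaptors and kinases at 13 w; the mean of probe sets also left 1 of 2 other ErbB genes. Causes were not tested beyond what each setting changes. All-gene medians moved by under 0.1 with scaling. No paired analysis was possible because animal numbers are unique. Low signal limits the Areg, Ereg and Hbegf references, Btc in 7 of 17 groups and Erbb3 in 15.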
